A study of Mus musculus with 20 samples.

Results

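Exonic peaks are stretches of open chromatin that the authors' peak annotation placed in an exon of a gene. They were chosen by that annotation alone, as every peak whose annotation began with the word exon, and no measured level entered the choice. There were 6860 of them among 125343 peaks (5.47%), against 15640 peaks annotated to promoters, 52469 to introns, 5209 to transcription end sites and 45165 to intergenic DNA. The assay was ATAC-seq, which uses a transposase to cut and tag accessible DNA, and the cells were LSK cells, the lineage-negative, Kit-positive and Sca1-positive fraction of mouse bone marrow in which stem and early progenitor cells are found. The libraries numbered 20, with 4 for each of 5 genotypes, and each was a pool of 2 C57Bl/6J mice aged 3 to 4 months. The control group, called WT below, carried Vav-Cre, a recombinase driven by the blood-cell promoter of Vav1, and no edited allele. Idh1 R132H, Idh2 R140Q and Idh2 R172K mice carried Vav-Cre together with 1 mutant allele that Cre switches on (Idh1LSL-R132H/+, Idh2LSL-R140Q/+ and Idh2LSL-R172K/+). Tet2 knockout mice are labelled Tet2-/-, and the labels do not say whether they carried Cre, so an effect of Cre and one of Tet2 loss cannot be told apart here.

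An exon can be open for several reasons. First exons lie next to the start site and share the open chromatin of the promoter, whereas exons deep in a gene are usually covered by nucleosomes and open where an enhancer, an internal promoter or an antisense start overlaps coding sequence. DNA in such places can carry 5-methylcytosine, which Tet2 oxidizes, and the mutant isocitrate dehydrogenases make 2-hydroxyglutarate, a compound that can inhibit Tet enzymes and other dioxygenases that use 2-oxoglutarate. A gene name below says where a peak lay and not which gene it controls, and fewer cells with an open site cannot be told apart from a site that is less open in each cell.

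The DNA just before the start sites that lay inside exonic peaks is shown first for 6 peaks on which results below turn, picked with their values known. Each sequence holds the 250 bases before a RefSeq start site (RefSeq, GRCm38.p6), 5′ to 3′ on the strand of the gene, and capitals mark matches to 6 motifs. The motifs were a GC box (GGGCGG), an ETS site (CCGGAAG), an AP-1 site (TGANTCA), a cyclic AMP response element (TGACGTCA), a GATA site (AGATAA) and an E-box (CACGTG), searched on both strands. Jun (chr4:95052223-95052472, minus strand) is shown because its exon held the most accessible exonic peak, and Fam181b (chr7:93079629-93079878, plus strand) because its peak rose in both Idh2 R172K and Tet2 knockout. Btg2 (chr1:134079156-134079405, minus strand) stands for the immediate early genes, Mecom (chr3:30013205-30013454, minus strand) for the genes with the most exonic peaks, Rcn3 (chr7:45092214-45092463, minus strand) for a start site that lost accessibility in Idh2 R172K, and Frem2 (chr3:53657356-53657605, minus strand) for one that gained it in Tet2 knockout.
Jun: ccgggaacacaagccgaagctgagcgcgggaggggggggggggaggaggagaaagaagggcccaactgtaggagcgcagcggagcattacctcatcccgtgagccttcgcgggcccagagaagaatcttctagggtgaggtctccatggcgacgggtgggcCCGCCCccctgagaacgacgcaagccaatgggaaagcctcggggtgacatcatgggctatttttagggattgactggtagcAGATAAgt
Fam181b: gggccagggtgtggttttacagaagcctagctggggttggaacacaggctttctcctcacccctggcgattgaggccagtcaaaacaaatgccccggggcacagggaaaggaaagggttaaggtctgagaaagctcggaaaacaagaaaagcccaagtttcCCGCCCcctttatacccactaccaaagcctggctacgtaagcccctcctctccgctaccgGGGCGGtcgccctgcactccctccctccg
Btg2: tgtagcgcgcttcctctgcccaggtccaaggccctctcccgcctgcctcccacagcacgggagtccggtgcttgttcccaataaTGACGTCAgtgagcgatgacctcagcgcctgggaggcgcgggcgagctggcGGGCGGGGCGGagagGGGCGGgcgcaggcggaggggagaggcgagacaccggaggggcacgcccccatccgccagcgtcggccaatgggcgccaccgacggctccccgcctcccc
Mecom: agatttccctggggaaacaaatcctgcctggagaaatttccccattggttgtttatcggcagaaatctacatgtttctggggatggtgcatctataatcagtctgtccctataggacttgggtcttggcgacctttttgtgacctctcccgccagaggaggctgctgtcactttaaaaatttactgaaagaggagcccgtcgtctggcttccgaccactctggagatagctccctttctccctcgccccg
Rcn3: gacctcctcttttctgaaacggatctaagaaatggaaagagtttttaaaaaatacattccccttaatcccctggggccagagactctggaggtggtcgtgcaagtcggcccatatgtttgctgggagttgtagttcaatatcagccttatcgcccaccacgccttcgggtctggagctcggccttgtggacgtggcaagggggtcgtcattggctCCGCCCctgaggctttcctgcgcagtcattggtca
Frem2: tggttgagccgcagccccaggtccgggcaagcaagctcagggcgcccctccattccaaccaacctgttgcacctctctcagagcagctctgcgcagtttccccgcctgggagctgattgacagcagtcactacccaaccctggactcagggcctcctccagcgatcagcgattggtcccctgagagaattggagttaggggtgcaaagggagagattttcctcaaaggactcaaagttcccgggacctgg

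Base composition differed widely between these start sites, from 50.4% G or C at Mecom to 73.2% at Btg2. The Btg2 window held 27 CpG pairs, 3 GC boxes and a cyclic AMP response element, and the Fam181b window held 10 CpG pairs and 2 GC boxes. In the Jun window 1 GC box and 1 GATA match were found, in the Rcn3 window 1 GC box, and in the Mecom and Frem2 windows no match. A match is a run of letters and not a shown binding site. Over the 1285 windows with a start site inside an exonic peak, which belonged to 1147 peaks, the median window had 63.7% G or C and 22 CpG pairs, and 71.1% held a GC box. Over all 32817 windows of the table these values were 52.7%, 7 and 35.6%, and over the 10365 windows in promoter peaks 62.7%, 23 and 68.7%. Start sites in exonic peaks thus had a median base composition near that of start sites in promoter peaks.

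Each library held between 10.5 M and 27.9 M counts in peaks (M for 1e6). Kit had 17 peaks with a summed 79.5 to 101 CPM per library (counts per 1e6 with TMM-scaled library sizes), Flt3 191 to 267 and Cd34 48.5 to 72.9, while Ly6a, which encodes Sca1, had a single peak of 0.619 to 1.49 CPM. Markers of cells the gate should remove were low for Cd3e (0.939 to 1.95) and Adgre1 (4.62 to 9.6), and Ly6g had 0 peaks, but the endothelial and stromal genes Pecam1 (70.8 to 94.7), Cdh5 (10.7 to 29.2) and Col1a1 (16.6 to 24.6) had open peaks. All 4 Idh2 R172K libraries lay above every other library at Cd34 and Pecam1 and below every other at Flt3, Adgre1 and Cdh5, and the part of this in the results below was not tested. At Xist, the gene whose RNA silences an X chromosome in female cells, 10 libraries had 3.87 to 4.89 CPM and 10 had 22.6 to 30.1, with 2 of each kind in every genotype. Tet2, Idh1, Idh2 and Vav1 had no exonic peak, so the edited genes could not be checked with these peaks.

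Exonic peaks lay nearer to start sites than intronic ones and had higher levels. By the authors' annotation the median distance to the nearest start site was 4151 bp for exonic and 17135 bp for intronic peaks. Of the exonic peaks 2196 (32%) lay under 1 kb from a start, 1471 at 1 to 5 kb, 1007 at 5 to 10 kb, 1834 at 10 to 50 kb and 352 beyond 50 kb. The nearest start belonged to the gene that held the exon for 4493 peaks (65.5%), and 1545 (22.5%) lay upstream of the nearest start. Last exons held 2314 exonic peaks, first exons 2138, internal exons 1646 and genes with a single exon 762. Measured against RefSeq start sites instead, a choice made after seeing the data, 1782 of 6683 exonic peaks (26.7%) lay within 1 kb, compared with 62.9% of promoter and 4.27% of intronic peaks. By these starts 423 exonic peaks that the deposited distance put beyond 1 kb had a start under 1 kb away.

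The median exonic peak was 631 bp wide with 4.28 CPM in WT (quartiles 1.51 and 12.7), or 6.5 CPM per kb of peak. Promoter peaks had 16.6 CPM per kb and intronic peaks 4.52. Within the exonic peaks the level per kb fell with distance, from a median of 11.7 CPM per kb under 1 kb to 6.88 at 1 to 5 kb, 5.35 at 5 to 10 kb, 4.68 at 10 to 50 kb and 4.97 beyond 50 kb. First exons stood at 13.5 CPM per kb, genes with a single exon at 6.39, internal exons at 5.1 and last exons at 5.05. Exonic peaks beyond 10 kb were thus close in strength to intronic ones taken over all distances, and those at 1 to 10 kb stood higher.

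**Figure D1:**
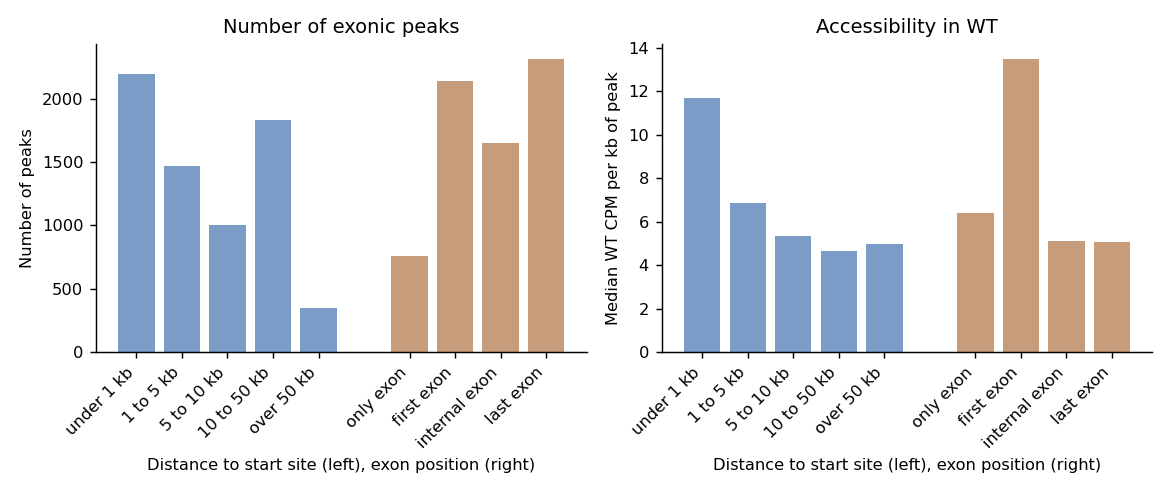
Number of exonic peaks (left) and median WT accessibility in CPM per kb of peak (right), by distance to the nearest start site (blue bars) and by position of the exon in its gene (brown bars). Peaks under 1 kb and first exons stand highest in level, at 11.7 and 13.5 CPM per kb.

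The exonic peaks fell in 5715 Ensembl genes, of which 4782 had 1 exonic peak and 933 had more, up to 6. The most accessible of them lay at first exons. Jun, an AP-1 transcription factor with 1 exon, had 241, 202, 191 and 237 CPM in the 4 WT libraries (mean 218 ± 24.9, SD, n = 4). Jund, its relative, had a mean of 211 ± 20.6 CPM, Zfp36l2, which promotes mRNA decay, 181 ± 12.5, and H3f3b, a gene for histone H3.3, 173 ± 10.1. Ints6, an Integrator subunit, and the ubiquitin ligase gene Zfp91 followed with 171 and 158 CPM. Of the 10 highest, 9 lay in an exon numbered 1. The other one, in exon 3 of 4 at Sfi1, had the largest WT spread of the 10 (148 ± 28.5 CPM) and was the one of the 10 that fell in Idh2 R172K, with 56 ± 9.89 CPM there (adjusted p = 8.79e-06 and log2 fold change -1.41 by edgeR's quasi-likelihood test with Benjamini-Hochberg adjustment, the test behind all adjusted p values here). Jun, Jund, H3f3b and Ints6 rose by 0.23 to 0.35 on the log2 scale, and the other 5 of the 10 did not pass the test. The H3f3b call was lost with cyclic loess scaling, and those of Jun, Jund and Ints6 were not followed individually under it.

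In Idh2 R172K many exonic peaks changed, in both directions. Raised were 1958 of the 6803 that passed the filter on low counts (28.8%), and lowered 1606 (23.6%), where 53% of all tested peaks were called, 25.1% raised and 27.9% lowered. The remaining 57 exonic peaks were too low to test. Larger changes were mostly losses: 751 exonic peaks fell and 143 rose beyond 2-fold, where 13.2% and 3.63% of all tested peaks did. In 1496 of the raised and 1288 of the lowered exonic peaks the 4 mutant libraries lay wholly beyond the 4 WT ones. These are 22% and 18.9% of the tested exonic peaks, where 18.9% and 22.5% of all tested peaks were called and without overlap. The share of exonic peaks called was 52.4%, or 47.3% with library size alone and 48.8% with cyclic loess. The balance rested on the scaling too, since with library size alone 1390 were raised and 1827 lowered (43.2% of calls raised against 54.9%).

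The 143 gains beyond 2-fold lay mostly in weak peaks inside genes, with a median of 0.87 CPM in WT and 16 of them under 1 kb from a start. The 751 such losses had a median of 2.41 CPM in WT and 103 under 1 kb. Snx20, a sorting nexin that binds the adhesion molecule PSGL-1, led the named gains by p with a peak in its last exon (exon 4 of 4, chr8:88627145-88628188). It held 1.56, 2.54, 1.97 and 1.89 CPM in the WT libraries and 12.2, 11.5, 13.9 and 11.9 in Idh2 R172K, so the groups lay far apart. The means were 1.99 ± 0.408 and 12.4 ± 1.05 CPM (SD, n = 4 each; log2 fold change 2.65 ± 0.148 SE, adjusted p = 5.1e-18). Its levels in Idh1 R132H (3.36 CPM), Idh2 R140Q (3.04) and Tet2 knockout (2.39) did not pass the test. Among the other raised peaks were last exons of Grk3, a receptor kinase (2.27), Cyb5r3, which reduces cytochrome b5 (1.70), and Limd1, a LIM-domain scaffold (1.06), and internal exons of Sbno1, a helicase-like gene (1.94), and Parvb, a focal-adhesion protein (1.64). Limd1 had 12.6 to 14.9 CPM in WT and 26.5 to 30.6 in Idh2 R172K. A peak inside Myrip (2.11) sat 108 bp from the start of a pseudogene, Gm15565.

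Other gains lay in first exons with higher WT levels than most of the peaks above, though near that of Limd1 for Rtkn and Mdfi. Fam181b (exon 1 of 2, chr7:93079612-93081220) had 27.7, 29.3, 27.4 and 29.5 CPM in WT and 51.4, 46.7, 52 and 57.3 in Idh2 R172K, a log2 fold change of 0.87 ± 0.0687 SE (adjusted p = 5.82e-14). Its Tet2 knockout libraries, at 39.9, 38.3, 37.4 and 35.7 CPM, lay between those groups and overlapped neither. First exons of Rtkn (1.02), and Mdfi, an inhibitor of myogenic factors (0.90), rose likewise, Rtkn from 15.9 ± 0.999 to 32 ± 3.09 CPM and Mdfi from 13 ± 0.761 to 24.2 ± 1.49.

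The losses with the lowest p values lay in stronger peaks. Msl3l2, related to the chromatin protein Msl3, had in exon 2 of 2 (chr10:56114908-56115883) 23.7, 25.1, 25.6 and 26.5 CPM in WT. The Idh2 R172K libraries had 2.39, 4.09, 3.51 and 3.6, while those of Idh1 R132H, Idh2 R140Q and Tet2 knockout all lay between 22.3 and 28.3 CPM. The log2 fold change was -2.94 ± 0.0986 SE (adjusted p = 1.26e-25), the lowest p of any exonic peak named here. Col5a1, a fibrillar collagen, had in exon 2 of 66 (chr2:27921686-27922540) 14.4 to 16.3 CPM in WT, 10.1 to 12.8 in Tet2 knockout and 0.845 to 1.56 in Idh2 R172K (log2 fold change -3.61, adjusted p = 2.68e-24).

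Other losses lay in genes with varied roles. Pitpna, a phosphatidylinositol transfer protein, went from 19.2 ± 1.33 CPM in WT down to 2.83 ± 0.079 (-2.77) in a peak that overlapped the start of the long noncoding RNA gene 4931413K12Rik. Pip4k2b, a phosphoinositide kinase (-1.86), Xdh, xanthine dehydrogenase (-1.67), the antiproliferative gene Tob2 (-2.20) and Lrfn1, a synaptic adhesion gene (-2.56), fell as well. Trib1, a pseudokinase that directs breakdown of the myeloid factor C/EBPα, fell in exon 2 of 2 from 14.3 to 18.2 CPM in WT to 2.76 to 3.54 (-2.38, adjusted p = 7.59e-20). Its Tet2 knockout libraries had 9.73 to 14.6 CPM and were lower than WT too (-0.57, adjusted p = 0.000209).

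**Figure D2:**
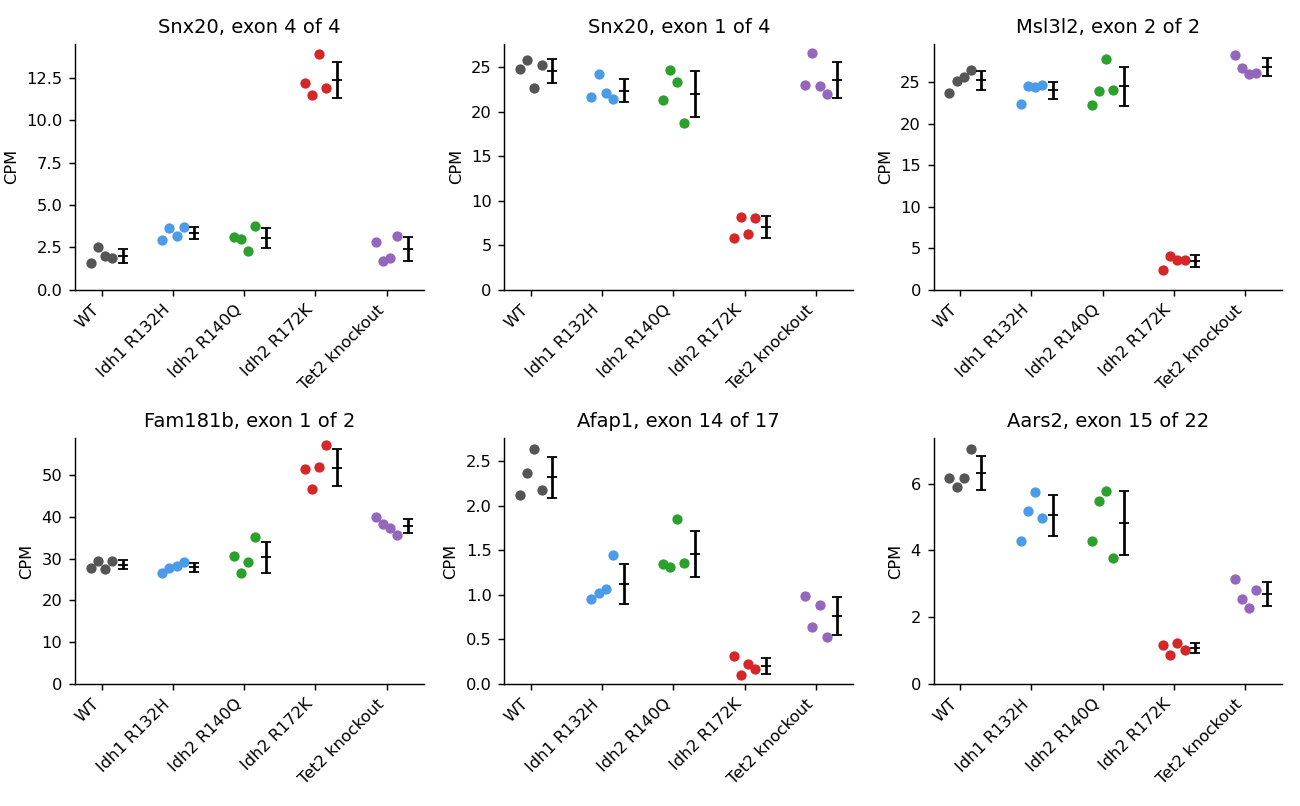
CPM in each of the 20 libraries (points) with the mean and SD of each genotype (black bars, n = 4) for 6 exonic peaks. Both Snx20 panels and Msl3l2 show Idh2 R172K apart from the other 4 genotypes, Fam181b shows Tet2 knockout between WT and Idh2 R172K, Afap1 shows all mutants under the 2.12 CPM of the lowest WT library, and Aars2 shows Tet2 knockout, up to 3.13 CPM, between WT and Idh2 R172K.

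Snx20 carried both directions within 1 gene. Its first exon (exon 1 of 4, chr8:88635551-88636458) had 24.8, 25.8, 22.7 and 25.3 CPM in WT and 5.77, 8.18, 6.21 and 8 in Idh2 R172K, so it fell (log2 fold change -1.86 ± 0.0945 SE, adjusted p = 2.06e-19) where the last exon rose. Other genes did so too. Of 320 genes, by RefSeq name, with at least 2 called exonic peaks in Idh2 R172K, 89 had only raised, 88 only lowered and 143 had both kinds. As 54.9% of exonic calls were raised, both kinds would often share a gene by chance. The 143 were not tested against that, so they show nothing particular to these genes. Angpt1, a ligand of the Tie2 receptor of stem cells, rose at exon 8 of 9 (0.99) and fell at exon 2 of 9 (-1.52). Peaks with opposite changes also lay in Lmtk2 (0.21 and -4.75), Rin3 (0.66 and -3.61), Plxna2, a semaphorin receptor (0.88 and -3.28), and Gnb4, a G protein subunit (1.94 and -1.52), genes picked after their values were seen.

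Among the RefSeq genes whose spans held the most exonic peaks, Mecom and Rabgap1l had calls in both directions. By RefSeq name Akap13, Mecom, Rabgap1l, Scn8a and Sptbn4 had 6 each, counting any exons of other genes annotated within them. Mecom encodes a zinc finger factor that stem cells need, and of its 6 exonic peaks, 3 of them in single-exon genes annotated within it, 4 rose in Idh2 R172K and 1 fell. The one at its start (exon 1 of 15, chr3:30012201-30013591) had 10.2 ± 1.24 CPM in WT and 15.8 ± 0.603 in Idh2 R172K, a log2 fold change of 0.65 (adjusted p = 9.17e-08), and the one that fell (chr3:30226415-30227283) from 2.23 ± 0.507 to 0.811 ± 0.228 (-1.40). None of the 6 was called in another mutant. Sptbn4, a spectrin, had 3 raised exonic peaks (0.23 to 0.60), Rabgap1l 1 raised (1.25) and 1 lowered (-1.31), Scn8a, a sodium channel, 1 lowered (-0.98), and Akap13, a kinase anchor, 1 lowered (-0.43). The raised Rabgap1l peak was annotated to exon 1 of 1 and the lowered one to exon 1 of 4. With such differing exon totals, these peaks need not be exons of Rabgap1l itself. One Rabgap1l peak, at 0.103 CPM in WT, was too low to test.

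Gains and losses in Idh2 R172K were distributed unlike one another over the gene. Under 1 kb from a start site 38.6% of tested exonic peaks were raised and 13.7% lowered. At 1 to 5 kb the shares were 24% and 25.6%, at 5 to 10 kb 25.4% and 27.7%, at 10 to 50 kb 24.2% and 29.5%, and beyond 50 kb 21% and 34.9%. First exons had 41.5% raised and 11.9% lowered, genes with a single exon 24.5% and 26.2%, last exons 23% and 26.6%, and internal exons 22.4% and 33.6%. With distances to RefSeq starts, the peaks under 1 kb had 41% raised and 11.3% lowered and the others 24.2% and 28.2%. Promoter peaks, for comparison, had 39.8% and 15%, and intronic peaks 22.6% and 30.8%.

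Level moved with position. With exonic peaks split into 4 equal sets by WT level, the highest set had 50.3% raised and 9.39% lowered, and the lowest 16.6% and 23.5%. Within the highest set, exonic peaks under 1 kb from a start had 53.6% raised and those over 10 kb 50.4%, and within the lowest set 11.6% and 17.9%. The third set from the lowest had 33.7% and 21.4%. Losses were more frequent over 10 kb than under 1 kb in each of the 4 sets, with 27.2% against 15.2% in the lowest, 35.1% against 28.2% and 37.8% against 21.1% in the middle ones and 13.6% against 4.97% in the highest. These shares are descriptions and were not tested. Cyclic loess scaling, which takes out trends of the fold change with level, left 26.2% raised under 1 kb and 21.3% beyond 50 kb, and 26.1% in first and 25.3% in internal exons. The excess of gains near starts and in first exons therefore depended on the scaling. The extremes of the lowered shares kept their order under it, with 18.2% under 1 kb against 30.5% beyond 50 kb, and 16.1% in first against 30.2% in internal exons, while genes with a single exon (26.3%) and last exons (23.4%) changed places.

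**Figure D3:**
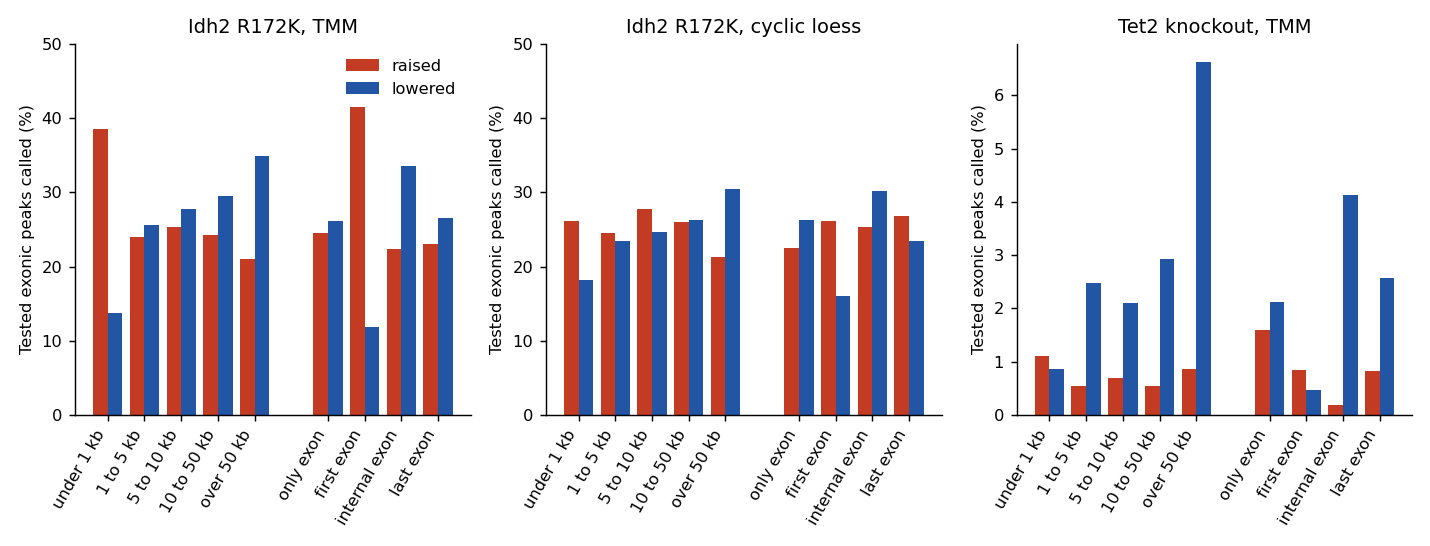
Percent of tested exonic peaks raised (red) and lowered (blue) by distance to the nearest start site and by exon position. In Idh2 R172K the raised share under 1 kb is 38.6% with TMM (left) and 26.2% with cyclic loess (middle), while in Tet2 knockout (right, another scale) the lowered share reaches 6.63% beyond 50 kb.

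In Idh2 R172K exonic peaks inside a gene did not simply follow the promoter of that gene. Of the exonic peaks over 1 kb from a start, 2657 lay in a gene that also had a promoter peak. Where the exonic peak was lowered in Idh2 R172K (775), the promoter peak was raised in 39.9%, lowered in 16.6% and not called in 43.5%. Where it was raised (622), the promoter was raised in 48.1% and lowered in 11.1%, and where it was not called (1260) in 41% and 14.4%. In Tet2 knockout 91 such exonic peaks were lowered, with a promoter that was lowered for 2 (2.2%) and not called for 89 (97.8%). Where the exonic peak was not called (2550), the promoter was lowered in 0.784% and not called in 98.6%. With so few promoters called, these counts cannot show whether exonic losses followed the promoter there.

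The gene lists were read by their exonic peaks, beside 28.8% raised and 23.6% lowered and a median log2 fold change of 0.07 over all 6803. Immediate early genes had 9 raised and 0 lowered of 12 (median 0.38), although with cyclic loess 5 were raised. Btg2, an antiproliferative early gene, had 68.6, 56.2, 53.1 and 59 CPM in WT and 88.9, 87.2, 86.5 and 92.7 in Idh2 R172K, with every mutant library above every WT library (log2 fold change 0.58, adjusted p = 4.03e-09). Ier5, another early gene with 1 exon, had 58.3 ± 3.66 CPM in WT and 83.4 ± 1.85 in Idh2 R172K (0.51).

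Of 25 exonic peaks at stem cell factors and receptors 11 rose and 6 fell (median 0.23), among them Mycn, a MYC family factor of stem cells, which fell in its last exon from 6.56 ± 0.492 to 2.51 ± 0.35 CPM (-1.41). Hox genes, which set the identity of body segments and of stem cells, had 8 raised and 2 lowered of 29 (0.20), or 4 and 2 with library size alone, with Hoxb4 at 0.38 and Hoxd4 at -0.93. Megakaryocyte and erythroid genes had 6 and 2 of 13, with Itgb3, the platelet integrin beta chain (0.69), and the tetraspanin Cd9 (0.58) raised. Myeloid genes had 1 and 1 of 6, the first exon of Spi1, the factor PU.1 (0.40), and the last exon of Gfi1, a transcriptional repressor (-0.93). The Gfi1 peak was weak, with 0.786 CPM in WT and 0.422 in Idh2 R172K, and its call was lost in 2 of 16 alternatives. Lymphoid genes had 3 and 5 of 16, with Blnk, a B cell adaptor, raised (1.08) and Ikzf2, the factor Helios, lowered (-1.51). For stroma and endothelium 3 rose and 2 fell of 7, with Runx2, a bone factor, at 0.86 and the VEGF receptor gene Kdr at -0.94. With library size alone 2 rose and 3 fell there, and the median of that list was -0.03, or 0.05 with cyclic loess.

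Genes of chromatin and matrix also moved both ways. The DNA methylation enzymes had 0 raised and 2 lowered of 4. A peak in the long noncoding antisense gene Dnmt3aos within Dnmt3a, a de novo methyltransferase, went from 5.73, 6.34, 6.57 and 4.68 CPM in WT to 2.42, 2.92, 3.03 and 2.59 (log2 fold change -1.08, adjusted p = 1.74e-08), without overlap. Mbd2, a reader of methylated DNA, fell by 0.25. The 2-oxoglutarate dioxygenases other than Tet had 5 and 3 of 15, with the collagen-modifying enzymes Plod2 raised (0.57) and P4ha1 lowered (-1.88). Polycomb and trithorax genes had 4 and 3 of 16, with the methyltransferase gene Dot1l among the lowered (-0.57), from 39.2 ± 3.62 to 26.2 ± 0.755 CPM. Zfp zinc finger genes had 33 and 13 of 84, with Zfp839 among the lowered (-3.47). Histone genes had 3 and 0 of 11, turning to 1 and 3 with cyclic loess. Protocadherins had 6 and 6 of 22 and collagens 5 and 4 of 16, or 3 and 5 with library size alone, with Col23a1 raised (0.66). With 4 to 84 peaks a list, none of these counts was tested against the rest.

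**Figure D4:**
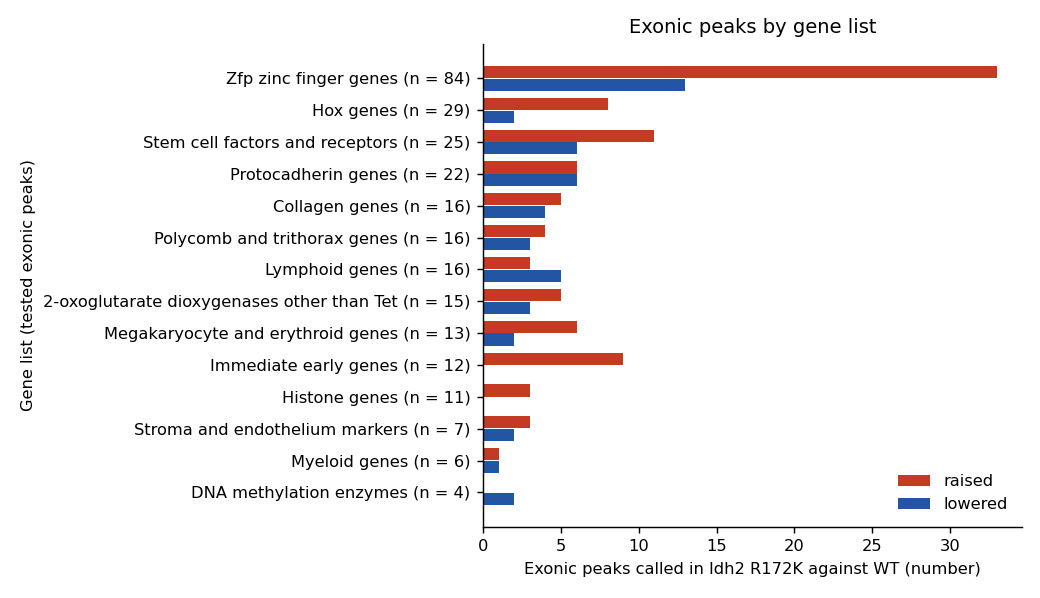
Number of exonic peaks raised (red) and lowered (blue) in Idh2 R172K against WT for 14 gene lists, with the number tested in brackets. Immediate early genes have 9 raised and 0 lowered of 12, and protocadherin genes 6 of each among 22.

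Tet2 knockout changed few exonic peaks, and most were losses. Of 6803 tested, 52 (0.764%) rose and 152 (2.23%) fell, where 3.1% of all tested peaks were called, 0.785% raised and 2.32% lowered. Beyond 2-fold 2 rose and 49 fell, where 0.0928% and 0.682% of all tested peaks did. The 4 knockout libraries lay wholly beyond WT in 48 of the raised and 137 of the lowered peaks, or 0.706% and 2.01% of the tested exonic peaks, where 0.655% and 2.04% of all tested peaks were called and without overlap. Within the 10 libraries low at Xist 175 rose and 82 fell, and within the 10 high ones 22 rose and 124 fell, so the balance turned between these sets. The calls numbered 126 without Tet2 knockout replicate 3 and 134 without WT replicate 1. Those raised numbered 25 and 26 without WT replicate 1 or 2 and 31 and 32 without Tet2 knockout replicate 1 or 3.

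Losses in Tet2 knockout were more frequent away from start sites, in exonic peaks and in other classes. Beyond 50 kb 6.63% of tested exonic peaks fell (23 of 347), at 10 to 50 kb 2.92%, at 5 to 10 kb 2.11%, at 1 to 5 kb 2.47% and under 1 kb 0.869%. Promoter peaks, for comparison, had 1.07% lowered, intronic peaks 2.58% and intergenic peaks 2.47%. Internal exons had 67 lowered of 1627 (4.12%) and first exons 10 of 2130 (0.469%), with 0.184% and 0.845% raised. Cyclic loess scaling gave 6.34% and 0.823% lowered beyond 50 kb and under 1 kb, and 4% and 0.516% in internal and first exons.

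Aars2, the alanyl-tRNA synthetase of mitochondria, led the losses in exon 15 of 22 (chr17:45517549-45518049). It had 6.18, 5.89, 6.18 and 7.06 CPM in WT and 3.13, 2.53, 2.28 and 2.82 in Tet2 knockout (log2 fold change -1.24 ± 0.132 SE, adjusted p = 3.99e-08), with no overlap. Idh2 R172K was lower still at 0.877 to 1.22 CPM (-2.51), and tested directly it lay below Tet2 knockout by -1.28 on the log2 scale. The same order of WT, Tet2 knockout and Idh2 R172K held for Cpeb2, which controls translation (2.69, 0.826 and 0.202 CPM), Mcm3ap, of mRNA export (3.59, 1.64 and 0.461), Gse1 (10.3, 6.29 and 3.33), Ccdc162 (3.78, 1.92 and 0.915) and the vesicle gene Rab3c (6.06, 3.34 and 1.12). Pcnx2 had 2.61 CPM in WT, 1.08 in Tet2 knockout and 1.1 in Idh2 R172K. Baiap2l1, an actin regulator, fell in both (-1.22 and -1.52), in an exon of the noncoding gene Gm15708, and Sgms2, a sphingomyelin synthase, fell too (-0.97 and -1.68). Both comparisons used the same WT libraries.

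Gains in Tet2 knockout were smaller. Frem2, a matrix protein gene, had in exon 1 of 24 (chr3:53656371-53657626) 4.63, 4.87, 4.27 and 5 CPM in WT and 6.49, 7.31, 6.95 and 7.4 in Tet2 knockout (log2 fold change 0.58 ± 0.113 SE, adjusted p = 0.00139), where Idh2 R172K had 4.19 to 5.16. Ccdc85a in its first exon had 4.48 to 6.03 CPM in WT, 6.76 to 9.31 in Tet2 knockout (0.72, adjusted p = 0.000177) and 4.92 to 6.76 in Idh2 R172K. Zc3h12d, of the regnase family of RNases (0.86), and the odorant receptor gene Olfr95 (0.66) rose, and their Idh2 R172K values of 0.12 and 0.28 did not pass the test. Fam181b (0.41), Cyb5r3 (0.69), Ep400, a chromatin remodeler (0.91), Klhl1 (1.08), Dnah7b, an axonemal dynein (0.65), and Impdh1, of guanine nucleotide synthesis (0.52), rose, with Idh2 R172K values of 0.87, 1.70, 1.30, 1.04, 0.52 and 1.02. The Tet2 knockout call of Impdh1 was lost in 2 of 16 alternatives. Those of Ccdc85a, Zc3h12d, Olfr95, Fam181b, Cyb5r3, Ep400 and Dnah7b were each lost in 1. In the gene lists 6 exonic peaks were called in Tet2 knockout: Plod2 and Zfp428 (both 0.26) rose, and Angpt1 (-0.89), Col5a1 (-0.40), Zfp839 (-0.69) and Zfp488 (-1.09) fell. The calls of Plod2, Angpt1 and Zfp488 were lost in 9, 9 and 10 of 16 alternatives, and those of Zfp839 and Col5a1 in 4 and 2. That of Zfp428, the 1 raised call of the Zfp list, was lost with library size alone and with cyclic loess.

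Idh1 R132H changed 3 of 6803 exonic peaks, 2 raised and 1 lowered, where 0.0274% of all tested peaks were called, 0.00646% raised and 0.021% lowered. A raised peak in a gene without a protein-coding RefSeq name (chr1:37868705-37869022, chosen after its values were seen) had 10.1, 9.86, 7.36 and 9.23 CPM in WT and 17.2, 12.2, 14.6 and 12.8 in Idh1 R132H. All 4 mutant libraries lay above WT (log2 fold change 0.63 ± 0.105 SE, adjusted p = 0.00498). It lay 27.3 Mb from the edited gene Idh1 on the same chromosome, and whether its change came with the chromosome of the edited allele was not tested.

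The exonic peak that fell in Idh1 R132H lay in Afap1, an actin filament protein (exon 14 of 17, chr5:35993460-35993884). It had 2.12, 2.37, 2.63 and 2.17 CPM in WT and 0.957, 1.02, 1.06 and 1.45 in Idh1 R132H (log2 fold change -1.04 ± 0.193 SE, adjusted p = 0.0149). The same peak was lower in Tet2 knockout (0.757 CPM, -1.61) and lowest in Idh2 R172K (0.199 CPM, -3.35), and its value in Idh2 R140Q (1.46 CPM, -0.65) did not pass the test. With a replicate block, which the shared numbers of Idh1 R132H and WT libraries allowed, 9 exonic peaks were called, 4 raised and 5 lowered. The Afap1 call was lost in 7 of 16 alternatives, among them those without WT replicate 2 or Idh1 R132H replicate 1, 2 or 3. With Idh1 R132H replicate 1 left out, 1 exonic peak was called.

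Idh2 R140Q changed 0 of 6803 exonic peaks by edgeR and 0 by DESeq2, where 0.0153% of all tested peaks were called by edgeR. An unadjusted p under 0.05 by edgeR was found at 320 exonic peaks, no more than chance alone would give at that threshold. With the replicate block 1 was called, in Pde4dip, a centrosome and Golgi scaffold (chr3:97710078-97710657, log2 fold change -0.78, adjusted p = 0.0443). All 4 calls that leaving out 1 library gave came without Idh2 R140Q replicate 2. The lowest unadjusted p values belonged to Uhrf1bp1 (1.57 ± 0.336 CPM in WT and 0.68 ± 0.314 in Idh2 R140Q, log2 fold change -1.16, adjusted p = 0.269) and Col27a1 (-1.22, adjusted p = 0.305).

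Direct tests between mutants separated Idh2 R172K from Tet2 knockout and from Idh2 R140Q at many exonic peaks. Against Tet2 knockout 1541 were higher and 1507 lower in Idh2 R172K, where 44.3% of all tested peaks were called, 20.1% higher and 24.1% lower. Against Idh2 R140Q 1650 were higher and 1530 lower, where 47% were called, 21.5% higher and 25.5% lower. With library size alone the counts were 1019 and 1750 against Tet2 knockout and 1194 and 1692 against Idh2 R140Q. Snx20 (2.37 against Tet2 knockout), Tnk2, a tyrosine kinase (1.07), and Pygm, a glycogen phosphorylase (1.04), were among those higher than in Tet2 knockout. Tnk2 had 8.7 ± 0.612 CPM in Tet2 knockout, 18.1 ± 1.88 in Idh2 R172K and 10.3 ± 0.961 in WT. Rcn3, a calcium-binding protein of the endoplasmic reticulum, was lower (-1.53), with 9.78 ± 0.789 CPM in Idh2 R172K, 28.4 ± 1.59 in Tet2 knockout and 25.5 ± 1.37 in WT.

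As a whole the exonic peaks took nearly the same share of counts in every library. The share was 7.94%, 7.99%, 7.89% and 7.9% in the WT libraries and 8.14%, 7.98%, 8.11% and 8.07% in Idh2 R172K, which overlap, and the means were 7.93 ± 0.0464% and 8.08 ± 0.0706% (SD, n = 4 each; exact permutation test, 2-sided, p = 0.0571, adjusted p = 0.171 over 12 tests). The other means were 7.98% in Idh1 R132H, 7.98% in Idh2 R140Q and 8.05% in Tet2 knockout. The log2 ratio of exonic to intronic counts was -1.76, -1.72, -1.78 and -1.75 in WT and -1.65, -1.68, -1.65 and -1.63 in Idh2 R172K, without overlap (exact permutation p = 0.0286, the smallest 4 against 4 can give, adjusted p = 0.171). The log2 ratio of exonic counts under 1 kb to those beyond 10 kb was 1.73 to 1.8 in WT and 1.87 to 1.91 in Idh2 R172K, again without overlap (exact permutation p = 0.0286, adjusted p = 0.171). None of the 12 tests passed after adjustment.

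**Figure D5:**
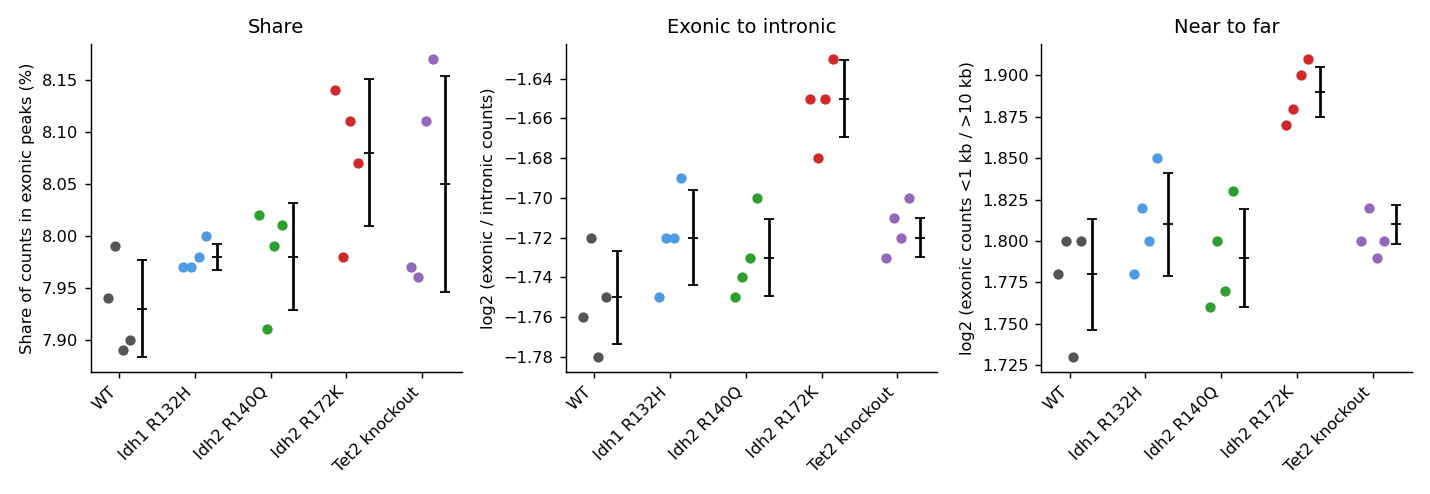
Share of counts in exonic peaks (left, percent), log2 ratio of exonic to intronic counts (middle) and log2 ratio of exonic counts under 1 kb from a start to those over 10 kb (right), for each library (points) with mean and SD (black bars, n = 4). The axes do not start at 0. Idh2 R172K lies apart from WT in the middle and right panels and overlaps it in the left one.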

How the data were processed

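The deposited data were whole-number counts in one peak set for the 20 libraries, and an annotation of its 125343 peaks with class, width and distance, both made by the authors. The submitters' processing notes name mm10 and the tools featureCounts, MACS2, SAMtools, Picard, BWA and Trim Galore. Order, versions and settings of these tools: not given in the sources used here. Coordinates were used as the annotation gives them, on mm10 and counting from 1. The main test was edgeR 4.0.16 (R 4.3.3): TMM scaling, a filter on low counts by genotype, and a robust quasi-likelihood model of all 20 libraries in which each genotype has its own mean. P-values were adjusted over 123908 tested peaks at a threshold of 0.05, and the common biological coefficient of variation was 7.73%. DESeq2 1.42.0, other scalings, no filter, a replicate block and libraries left out were alternatives. The fits were tested on simulated counts. Replicate libraries differed by more than counting noise (chi-square per degree of freedom of 1.15 to 3.03), and each pooled 2 mice. Precision was limited by counts at 965 tested exonic peaks under 1 CPM in WT.

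Because the annotation pairs no symbols with its Ensembl identifiers, a peak was named for the protein-coding RefSeq gene (GRCm38.p6) around its centre, taking the shortest of overlapping genes. This named 6159 of 6860 exonic peaks (89.8%), 420 lay in genes of other types and 281 in none. The design had assumed symbols. Exon numbers are those of the annotated Ensembl gene, which can be another gene than the named one. Named peaks were the first 10 by p in each direction against WT (5 between mutants) among called peaks whose groups did not overlap, with 1 peak a gene and predicted gene models left out, up to 2 per gene list, the 10 highest in WT and all peaks of the genes with most exonic peaks. Members and lists were chosen with earlier results of these data known. Same-numbered libraries deviated together in Idh1 R132H (correlation with WT 0.102 to 0.232) and Idh2 R140Q (0.115 to 0.275), so the blocked counts stand beside those results. For Idh2 R172K (-0.0479 to 0.122) and Tet2 knockout (0.0318 to 0.0911) not every pair was over 0.1, the bar used for pairing. A few named peaks are not reported here.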

Additional observations from a re-analysis of the deposited data

Results flagged for a closer look

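Among the exonic peaks named above, 22 of 565 groups of 4 libraries held 1 library whose gap to the nearest of the others was over 0.829 of the group's range. Chance flags about 1 in 20 groups. In WT these were Mcm3ap in replicate 2 (4.05 CPM) and Rcn3 in replicate 3 (27.5). In Idh1 R132H they were Msl3l2 in replicate 1 (22.4), Gse1 in replicate 3 (10.3), 4933440N22Rik in replicate 4 (160), a Sptbn4 peak in replicate 4 (1.31) and an Akap13 peak in replicate 2 (25.1). In Idh2 R140Q they were Afap1 in replicate 3 (1.85), Mycn in replicate 1 (5.5), P4ha1 in replicate 1 (0.706), Dot1l in replicate 2 (32.2), Col23a1 in replicate 1 (22.9) and a Scn8a peak in replicate 3 (1.25). In Idh2 R172K they were Ep400 in replicate 3 (4.25), Ccdc162 in replicate 1 (0.731), Hoxd4 in replicate 2 (2.24), Gfi1 in replicate 1 (0.269), Zfp839 in replicate 2 (0.682), a Sptbn4 peak in replicate 4 (4.05) and the Akap13 peak in replicate 2 (25.7). In Tet2 knockout they were Ikzf2 in replicate 3 (4.21) and a Sptbn4 peak in replicate 2 (3.46).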

How the results depend on the processing

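The 94 calls named by p in a comparison or from a gene list kept their direction in all 1504 alternatives run. Of these, 75 also kept their side of the threshold in every one. Of the 25 in Tet2 knockout 13 lost the call in at least 1 alternative. Of the 47 in Idh2 R172K 5 did (Gfi1, H3f3b, Hoxd4, Kdr and Mbd2). Other calls given above, such as those of Jun, Sfi1, the Mecom peaks and Zfp428, were not among the 94. Counts of exonic calls moved more. With the replicate block, Idh1 R132H had 9 calls (4 raised, 5 lowered), Idh2 R140Q 1 lowered and Tet2 knockout 343 (106 raised, 237 lowered). No same-numbered pair of Tet2 knockout and WT libraries correlated over the bar of 0.1, and the labels do not say what the numbers share. The block changed no other count by more than 1.5 times. In the libraries low at Xist, Idh1 R132H had 0 lowered, Idh2 R140Q 5 calls (5 raised), and Tet2 knockout 175 raised and 82 lowered. In the high ones Idh1 R132H had 1 raised, Idh2 R172K 2249 calls (1129 raised), Tet2 knockout 22 raised, Idh2 R172K 989 higher than Tet2 knockout, and 1791 calls against Idh2 R140Q (830 higher, 961 lower). The share of counts moved by 0.214 (low) and 0.0833 (high) percentage points in Idh2 R172K and by 0.048 and 0.194 in Tet2 knockout. Fitting only the groups compared gave Idh1 R132H 6 calls (3 lowered), and library size or cyclic loess scaling 2 lowered. Over 1 kb from a start, 1114 rose in Idh2 R172K and 28 in Tet2 knockout, and 873 and 947 were higher in Idh2 R172K than in Tet2 knockout and Idh2 R140Q. Library size alone left 1019 higher than in Tet2 knockout. The cause was not tested for these changes. Leaving out 1 library gave 1 to 4 calls for Idh1 R132H (1 to 3 raised, 0 to 2 lowered), 0 to 4 for Idh2 R140Q (0 to 4 lowered), 3154 to 3483 for Idh2 R172K, and 126 to 218 for Tet2 knockout (25 to 61 raised, 94 to 157 lowered). The bins by position under other scalings and the RefSeq distance were chosen after seeing the data.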

Other observations

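Exonic peaks were spread over all chromosomes, from 169 on X to 556 on chromosome 11. The share raised in Idh2 R172K ran from 22.2% on chromosome 5 to 33.9% on chromosome 11, and the share lowered from 13.7% on X to 30.3% on chromosome 14. Start windows in exonic peaks raised in Idh2 R172K (619) held a GC box in 74% and a median of 22 CpG pairs, those lowered (88) in 55.7% with 17, and those not called (578) in 70.4% with 24. These shares are descriptions and were not tested.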
